A study of Mus musculus with 6 samples.

Results

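The 6 genes described here, Clcn1, Scn4a, Kcna7, Atp1b1, Fxyd1 and Fxyd5, encode ion channels, a sodium pump subunit and proteins that bind the pump. They were grouped as muscle membrane excitability and sodium pump genes. They were taken by symbol from a table of 16854 genes, and all 6 were found in it. RNA came from C2C12, an immortal mouse myoblast line that fuses into myotubes when serum is lowered. There were 2 groups of 3 libraries, control cells given a scramble hairpin RNA and Adamtsl2 knockdown cells given a hairpin RNA against Adamtsl2, which encodes a secreted protein of the extracellular matrix. In both groups confluent cells were kept in 2% horse serum until day 3 of differentiation. The series title places the work in Wnt signalling during muscle formation. The labels do not give the number of hairpin sequences or clones, or say whether libraries came from separate cultures, so p-values measure the spread between these libraries, which may be technical. The loss of Adamtsl2 RNA and any other difference between the 2 cell populations cannot be told apart.

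A muscle fibre fires when the voltage-gated sodium channel encoded by Scn4a opens, and the chloride channel encoded by Clcn1 supplies much of the resting conductance that returns the membrane to rest. Potassium channels such as the one encoded by Kcna7 repolarise the membrane. The sodium pump, built from an alpha subunit that splits ATP and a beta subunit that carries the pump to the surface, restores the sodium and potassium gradients. Small FXYD proteins bind the pump and tune it, and Fxyd1 encodes phospholemman, the form best known from heart and skeletal muscle.

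In knockdown cells 4 of the 6 genes fell (Clcn1, Scn4a, Kcna7 and Atp1b1) and 2 rose (Fxyd1 and Fxyd5). The largest fall was that of Scn4a, with 7337 reads over the 3 control libraries and 7 over the 3 knockdown libraries. The largest rise was that of Fxyd1, from 29 reads to 2534. Over all 16245 genes tested, 21.7% rose and 23.5% fell at an adjusted p under 0.05, so a call in either direction was made for 45.2% of genes. All 6 genes had no overlap between the groups, which was also true of 62.6% of all genes tested. For Scn4a and Kcna7, under 10 in every knockdown library, this was fixed by the filter, which asked for at least 10 in at least 3 libraries. Values below are normalised counts, that is reads divided by a size factor for each library, and log2 changes are knockdown minus control on the scale of log2(value + 1) with their standard errors, tested with limma.

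The stretches just before the RefSeq start are shown for the 3 genes where they overlap no annotated exon. They were searched for motifs of the muscle regulators. They are 250 bases long (GRCm38.p6) and written on the gene's strand. Capitals mark matches to CANNTG, the E-box core bound by Myod1 and related factors, searched on both strands and counting CAGCTG as a case of it, and a match to the MEF2 motif. They lie at chr6:42286435-42286684 on the plus strand for Clcn1, at chr1:164458356-164458605 on the minus strand for Atp1b1 and at chr7:31054854-31055103 on the minus strand for Fxyd1.
Clcn1: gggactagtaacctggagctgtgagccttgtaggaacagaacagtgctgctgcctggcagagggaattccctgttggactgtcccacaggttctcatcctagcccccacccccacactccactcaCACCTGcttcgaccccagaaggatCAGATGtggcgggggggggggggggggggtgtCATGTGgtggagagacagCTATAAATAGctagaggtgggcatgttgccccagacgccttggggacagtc
Atp1b1: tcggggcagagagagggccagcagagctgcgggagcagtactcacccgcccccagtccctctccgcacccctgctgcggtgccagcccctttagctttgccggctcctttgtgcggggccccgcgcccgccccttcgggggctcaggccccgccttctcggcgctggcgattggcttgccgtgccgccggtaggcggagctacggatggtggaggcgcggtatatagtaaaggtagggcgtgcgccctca
Fxyd1: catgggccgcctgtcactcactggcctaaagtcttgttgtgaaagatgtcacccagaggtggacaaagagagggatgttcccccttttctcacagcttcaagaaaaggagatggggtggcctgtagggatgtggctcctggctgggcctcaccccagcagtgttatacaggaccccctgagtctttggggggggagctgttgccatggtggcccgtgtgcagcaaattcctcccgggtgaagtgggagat

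The Clcn1 stretch held 3 CANNTG matches, the nearest beginning 69 bases before the start, and 1 MEF2 match beginning 51 bases before it. The Atp1b1 and Fxyd1 stretches held neither motif. Of 32851 RefSeq stretches of the same length, 66.2% held a CANNTG, with a median of 1, 13.001% held a CAGCTG and 2.92% held a MEF2 match. The stretch of Kcna7 had 3 CANNTG matches and no MEF2 match, and those of Scn4a and Fxyd5 had neither. In GENCODE M21 these 3 stretches overlap annotated exons, and those of Scn4a, Kcna7 and Fxyd1 lie inside the gene body, so they are not wholly upstream of the gene model. These matches describe letters only, and no binding was measured.

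Scn4a encodes the pore subunit of the sodium channel of skeletal muscle, and lies on chromosome 11 from 106318592 to 106353288 on the minus strand (GRCm38), with 7041 exonic bases. In control libraries 1 to 3 its normalised counts were 2610, 3228 and 2267. Those in the knockdown libraries, in the same order, were 0.829, 1.67 and 4.47. The knockdown values stood for 1, 2 and 4 reads, so every knockdown library was within a few reads of 0. Group means were 2702 ± 487 and 2.32 ± 1.91 (SD, n = 3 each). The log2 change was -9.80 ± 0.43 (95% interval -10.85 to -8.76, limma adjusted p = 2.8e-05). From summed reads Scn4a was 1251-fold lower in knockdown cells, with an exact 95% counting interval of 607 to 3112. Among all genes tested, 11 had a log2 change as low or lower, Scn4a included. With so few knockdown reads its log2 change moved with the constant added before the logarithm, to -10.10 with 0.5 and -8.55 with 5.

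Clcn1, the chloride channel whose loss causes myotonia, lies on chromosome 6 from 42286685 to 42315756 on the plus strand, with 5428 exonic bases. It was measured at 224, 234 and 255 in the control libraries and at 43.1, 35.1 and 19.0 in the knockdown libraries. The controls were close together, and the third knockdown library was the lowest of the 6. Means were 238 ± 15.5 and 32.4 ± 12.3, and Clcn1 fell by 2.91 ± 0.33 on the log2 scale (limma adjusted p = 8.6e-04). The last 445 bases of the locus overlap Fam131b on the opposite strand, and since the strand setting of the counting is not given in the sources used here, reads there cannot be assigned to either gene. Fam131b itself had 865 ± 38.2 in control and 2444, 2466 and 511 in knockdown libraries 1 to 3, with a log2 change of 0.75 ± 0.62 that missed the threshold (limma adjusted p = 0.37). Without the third knockdown library it was 1.504 and passed.

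Kcna7 encodes a voltage-gated potassium channel of the Shaker family found in heart and skeletal muscle, and lies on chromosome 7 from 45405653 to 45409763 on the plus strand. Per exonic kb it was the least abundant in control cells of the 4 genes that fell. It had 17, 28 and 24 reads in the control libraries and 5, 2 and 1 reads in the knockdown libraries. Normalised counts were 18.5, 35.4 and 22.8 in control and 4.15, 1.67 and 1.12 in knockdown. Every knockdown value lay below every control value, which the filter on low values required of a gene with such low knockdown values. All 3 knockdown values were a few reads. Means were 25.6 ± 8.75 and 2.31 ± 1.61 (SD, n = 3 each). The log2 change was -3.06 ± 0.49 (95% interval -4.25 to -1.87, limma adjusted p = 0.0034), and from summed reads Kcna7 was 10.3-fold lower, with a counting interval of 4.94 to 24.8. The size of the change depended on the constant added before the logarithm, at -2.05 with a constant of 5.

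Atp1b1 encodes the most widely expressed beta subunit of the sodium pump, on chromosome 1 from 164437109 to 164458355 on the minus strand. Its values were 2101, 2155 and 2126 in control and 995, 1088 and 466 in knockdown. The control libraries were nearly equal, while knockdown library 3 stood well below the other two. Means were 2127 ± 27.1 and 849.8 ± 335, and Atp1b1 fell by 1.42 ± 0.33 on the log2 scale (limma adjusted p = 0.015). The call was lost when any control library was left out, at limma adjusted p = 0.055 without control 1, 0.058 without control 2 and 0.058 without control 3, with log2 changes of -1.43, -1.41 and -1.42. Without knockdown library 3 the fall was smaller, -1.03, and its limma adjusted p was 7.2e-08. Atp1b1 shares 617 bases with Nme7, which lies on the opposite strand and rose from 349 ± 53.5 to 840.1 ± 18.9 (log2 change 1.28 ± 0.15, limma adjusted p = 0.0010). As for Clcn1, the strand setting is not known, so reads in the shared bases cannot be assigned to either gene.

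Fxyd1 lies on chromosome 7 from 31051678 to 31057199 on the minus strand, with 2186 exonic bases. It had 8.72, 13.9 and 9.50 in the control libraries and 494, 507 and 1489 in the knockdown libraries. Control cells thus gave 8 to 11 reads per library, and knockdown library 3 gave more than the other knockdown libraries together. Means were 10.7 ± 2.79 and 830.02 ± 571 (SD, n = 3 each), and the log2 change was 5.97 ± 0.48 (95% interval 4.79 to 7.15, limma adjusted p = 2.3e-04). From summed reads the level was 73.2 times as high, with a counting interval of 50.9 to 109.6. Among all genes tested, 116 had a log2 change as high or higher, Fxyd1 included. Without knockdown library 3 the log2 change was 5.45.

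Fxyd5 encodes dysadherin, an FXYD protein that also affects cell adhesion, and lies near Fxyd1 on chromosome 7, from 31032722 to 31042481 on the same strand. It was measured at 163, 130.1 and 178 in control and at 717, 662 and 1108 in knockdown. Means were 157 ± 24.4 and 829 ± 243, and Fxyd5 rose by 2.37 ± 0.25 on the log2 scale (limma adjusted p = 6.3e-04). The rise was shared by every knockdown library, and library 3 was again the highest. The gene model contains the microRNA gene Mir7050, which was not analysed here.

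**Figure D1:**
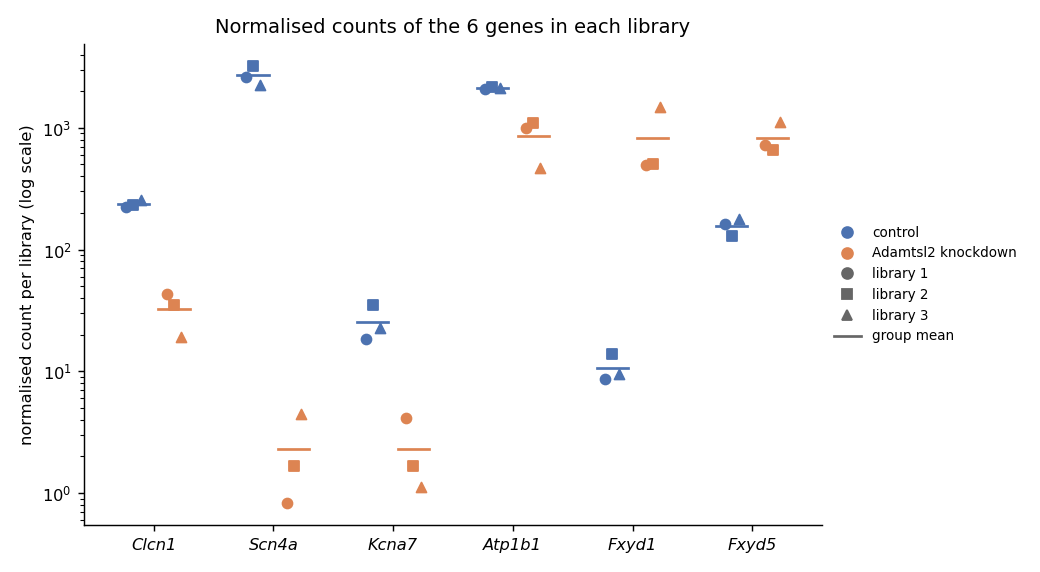
Normalised count (log axis) of each of the 6 genes in each library, with blue for control, orange for Adamtsl2 knockdown, a marker shape per library number and a line at the group mean. Clcn1, Scn4a, Kcna7 and Atp1b1 lie lower in all knockdown libraries and Fxyd1 and Fxyd5 higher, with Scn4a at 0.829 to 4.47 against 2267 to 3228 in control.

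With 3 against 3 libraries an exact two-sided permutation test of a single gene cannot go below p = 0.1, and each of the 6 genes reached that value. Scn4a and Kcna7 passed the filter on low values only through the control libraries, so these genes had to differ to be tested. Fxyd1 had 1 control library at the minimum of 10, so it passed only with the help of knockdown libraries. Other genes named below also had to differ, being under 10 in every library of a group. They were Atp1b2, Fxyd6, Scn3b, Kcnj11, Kcnk13 and Prr29 in knockdown, and Kcna4, Lgi4 and the marker Msc in control. The authors' deposited table gives log2 fold changes of -10.30 for Scn4a, -2.86 for Clcn1, -3.42 for Kcna7, -1.32 for Atp1b1, 6.29 for Fxyd1 and 2.40 for Fxyd5. All 6 adjusted p-values in the authors' deposited table were under 0.05, the largest being 6.1e-04 for Atp1b1. The sign was the same as in the limma fit for each gene.

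**Figure D2:**
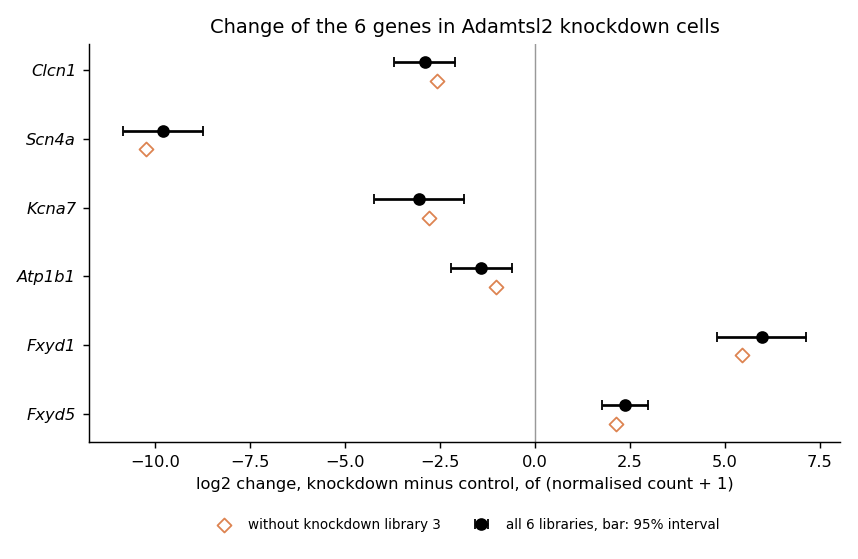
Log2 change, knockdown minus control, of normalised count + 1 for each gene, as black points with 95% intervals from limma and as open diamonds without knockdown library 3. No interval reaches 0, and the diamonds range from -10.24 for Scn4a to 5.45 for Fxyd1.

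Levels per kb of exon allow the genes to be set beside each other within a group. In control cells the order was Atp1b1 (690.4 ± 8.78 normalised counts per exonic kb), Scn4a (384 ± 69.2), Clcn1 (43.8 ± 2.85), Fxyd5 (37.5 ± 5.82), Kcna7 (11.7 ± 4.01) and Fxyd1 (4.90 ± 1.28). Only Clcn1 and Fxyd5 were neighbours whose libraries overlapped. In knockdown cells Fxyd1 (379.7 ± 261), Atp1b1 (276 ± 109) and Fxyd5 (198 ± 57.9) overlapped with each other. Their order turned on library 3: Atp1b1 was above Fxyd1 in knockdown library 1 (323 against 226) and library 2 (353 against 232), and below it in library 3 (151 against 681). Clcn1 (5.97 ± 2.26), Kcna7 (1.06 ± 0.739) and Scn4a (0.330 ± 0.271) followed, with Kcna7 and Scn4a overlapping. Fxyd1, lowest of the 6 in every control library, was thus among the 3 most abundant in every knockdown library.

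The libraries as a whole differed in ways that touch these values. Adamtsl2 itself, the target of the hairpin, was at 1325, 1266 and 1307 in control and at 23.2, 21.7 and 7.83 in knockdown (log2 change -6.26 ± 0.41, limma adjusted p = 1.1e-04). Recovered reads totalled 37346439 to 50329438 per library. Knockdown library 3 stood apart. Malat1, a nuclear RNA, made up 2.83% of its reads against 0.302 to 0.515% elsewhere, and protein-coding genes 93.6% against 97.7 to 98.0%. Its log2 values correlated with those of the other knockdown libraries at 0.917 and 0.920, against 0.993 to 0.996 within the other pairs of a group. With it left out, limma called 78.5% of genes, and all 6 genes here kept their direction and their call. Median log2 change over all tested genes was -0.0013, and it shifted to 0.12 with upper-quartile scaling and 0.11 with edgeR, which changed no direction among the 6.

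Skeletal muscle markers moved with the 4 genes that fell. All 6 of the list (Des, Acta1, Ckm, Myh3, Tnnt3 and Actn2) were lower in knockdown cells, and their summed level ranged from 984096 to 1002141 in control and from 6445 to 7355 in knockdown. No muscle marker was at 0. Of 4 myoblast markers, Myod1 and Pax7 fell and Myf5 and Msc rose, with sums of 6772 to 7318 and 1349 to 1931, and Pax7 was at 0 in knockdown libraries 1 and 2. Of 5 fibroblast markers, 4 were in the table, of which Dcn rose, Col1a1 fell and 2 did not pass, with sums of 304971 to 349725 and 84766 to 153039. The part of these markers in the changes of the 6 genes was not tested. In bulk RNA, fewer muscle-like cells and less RNA per cell cannot be told apart.

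Markers of other cell types were summed in the same way. Of 4 smooth muscle markers 3 fell, with sums of 227383 to 260660 in control and 76321 to 82945 in knockdown. The other had a log2 change of 0.98, which passed only at an unadjusted limma p under 0.05. Macrophage markers summed to 70.8 to 108 and 63.8 to 124, from 2 of 4 genes in the table. Neither of the 2 passed, with log2 changes of -1.09 and 0.28. Heart markers, 2 of 4 in the table, summed to 2052 to 2180 and 11.7 to 33.5, with Myh6 lower. Glial markers, 2 of 4 in the table, summed to 64.3 to 83.6 and 78.8 to 519.8, the highest being knockdown library 3. These 2 moved in opposite directions (log2 changes -1.14 and 1.36) and neither passed. The endothelial list was represented by Pecam1 alone, at 1.90 to 4.36 and 2.51 to 68.2, and none of the 4 adipocyte markers was in the table.

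Atp1b1 was set beside the other beta subunit genes of the pump that were measured. Atp1b2, found mainly in brain and muscle, went from 4795 to 11 reads, 520.2-fold lower (counting interval 290.5 to 1043, limma adjusted p = 6.7e-06). Atp1b3 was at 6581 ± 78.5 and 5784 ± 1106 and did not pass (log2 change -0.20 ± 0.16, limma adjusted p = 0.34); without knockdown library 3 it was -0.35 and passed (limma adjusted p = 5.3e-05).

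The make-up of the beta subunit RNA was computed in each library. Per exonic kb, Atp1b1 made up 17.9, 17.7 and 17.8% of beta subunit RNA in the control libraries and 13.4, 13.7 and 4.88% in the knockdown libraries. The groups did not overlap, and the exact permutation p was 0.1, the smallest possible for these shares. The mean difference was -7.17 percentage points, and -4.28 without knockdown library 3. Atp1b2 held 11.1 ± 1.05% in control and 0.031 ± 0.0062% in knockdown, and Atp1b3 held 71.1 ± 0.977% and 89.3 ± 5.002%.

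Among FXYD genes, 4 were tested, of which Fxyd1 and Fxyd5 rose and Fxyd6 fell. Fxyd6 had 141 reads in control and 1 in knockdown, 168-fold lower with a counting interval of 29.7 to 6693. Fxyd4 was at 63.2 ± 5.83 and 73.2 ± 54.5 (log2 change -0.04 ± 0.52, limma adjusted p = 0.96), and without knockdown library 3 its log2 change was -0.60 and passed. The summed FXYD level per exonic kb was 86.4 to 88.4 in control libraries and 414, 416 and 1015 in knockdown libraries. Fxyd1 made up 4.60, 7.35 and 4.92% of it in control and 54.6, 55.7 and 67.1% in knockdown, without overlap (exact permutation p = 0.1). Fxyd5, although it rose, held 45.0, 35.9 and 48.0% in control and 41.3, 38.0 and 26.0% in knockdown, and these shares overlapped (exact permutation p = 0.3).

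**Figure D3:**
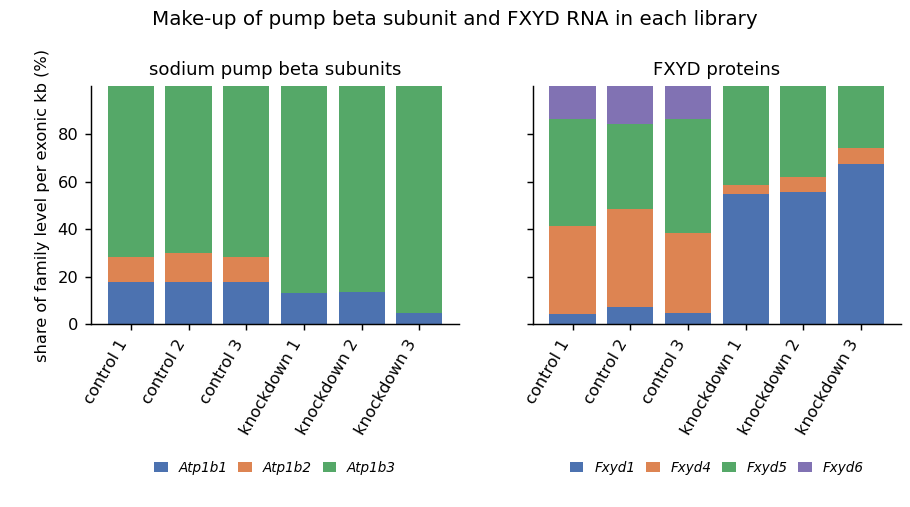
Share of each gene in the summed level per exonic kb (%) of sodium pump beta subunits and FXYD proteins, as stacked bars for each of the 6 libraries. In the FXYD panel Fxyd1 takes 4.60 to 7.35% of the bar in control libraries and 54.6 to 67.1% in knockdown libraries, and in the beta panel Atp1b2 is no longer visible in knockdown libraries.

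The other channel genes were read from 4 lists. For comparison, 21.7% of all genes tested rose, 23.5% fell and the median log2 change was -0.0013. Of 8 genes tested in the CLC list, which includes the partner protein gene Ostm1, 3 fell and 0 rose by limma (median log2 change 0.03). By limma 1 rose at an unadjusted p under 0.05, edgeR and DESeq2 each called 1 that rose, and limma called 4 without knockdown library 3. Those that fell were Clcn1, Clcn5, an endosomal exchanger (-1.87 ± 0.13, limma adjusted p = 1.4e-04), and Ostm1, the partner of a lysosomal exchanger (-0.66 ± 0.12, limma adjusted p = 0.0063). Clcn1 had the largest change of the 8.

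The table held 8 sodium channel genes and 6 were tested, of which 3 fell and 1 rose (median -2.71). The auxiliary subunit Scn3b had 206 reads in control and 1 in knockdown, 246-fold lower with a counting interval of 43.6 to 9757. Scn10a, better known from sensory neurons, rose from 40.9 ± 4.27 to 101.4 ± 22.02 (1.27 ± 0.25, limma adjusted p = 0.0080).

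Of 15 voltage-gated potassium channel genes tested, 7 fell and 5 rose (median 0.01). The log2 change of Kcnf1, which encodes a silent modifier subunit, was -3.22 ± 0.34 (limma adjusted p = 6.4e-04). Kcna4, a Shaker-family gene like Kcna7, had 1 read in control and 242 in knockdown, 203-fold higher with a counting interval of 36.1 to 8042. Kcnc2 rose by 2.51 ± 0.23 and Kcnd1 by 1.64 ± 0.15 on the same scale. Kcna7 and Kcna4, the Shaker-family genes in the table, thus changed in opposite directions.

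Of 13 inward rectifier, calcium-activated and leak potassium channel genes tested, 8 fell and 3 rose (median -2.05). The leak channel Kcnk13 and the inward rectifier Kcnj16 had log2 changes of -6.71 ± 0.24 and -3.99 ± 0.26. Kcnj11, the pore of the ATP-sensitive channel, had 406 reads in control and 1 in knockdown, 484.5-fold lower with a counting interval of 86.5 to 19184. Kcnj2, an inward rectifier that sets the resting potential of muscle, chosen after its values were seen, fell from 4294 ± 263 to 859 ± 255 (-2.37 ± 0.25, limma adjusted p = 6.4e-04). The calcium-activated channel Kcnn4 rose by 1.59 ± 0.14. Kcnmb4 (1.71 ± 0.44, limma adjusted p = 0.021) and Kcnk5 (1.26 ± 0.35, limma adjusted p = 0.028) also rose, but the first lost its call without control 2, control 3 or knockdown 1 and the second without any control, knockdown 1 or knockdown 2. Over the 6 lists of channel, pump and FXYD genes, without the 6 genes described here, 9 of 46 tested rose and 23 fell. Their median log2 change was -0.999. These counts, those of each list and the median include genes under 10 in every library of a group, such as Kcnk13 in knockdown and Kcna4 in control. Such genes passed the filter on low values only through the other group, so their direction was fixed by the filter. Among all genes tested 21.7% rose, 23.5% fell and the median was -0.0013.

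**Figure D4:**
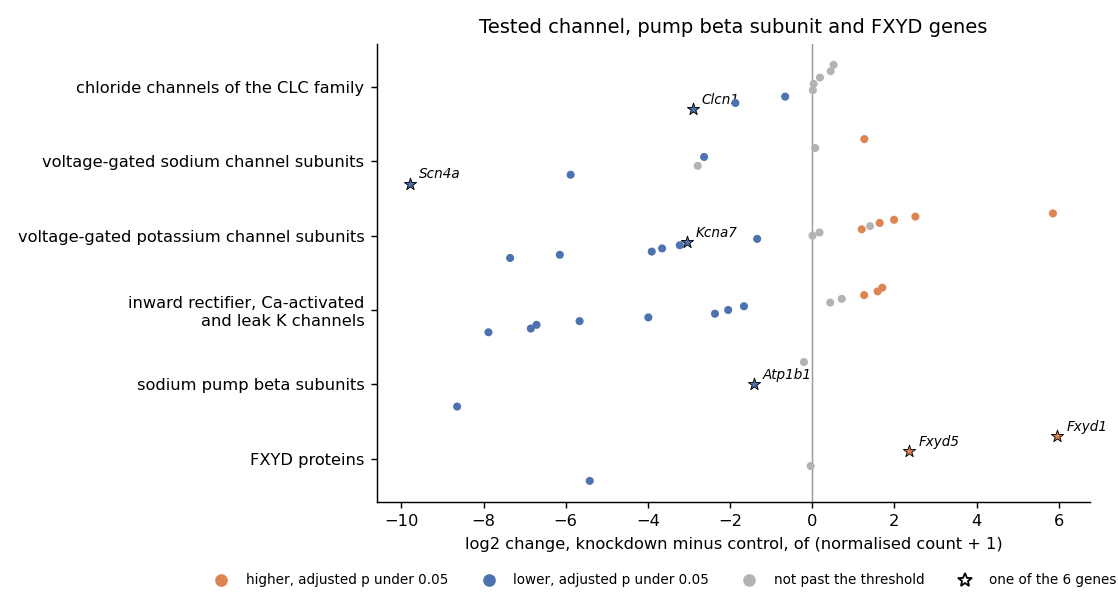
Log2 change, knockdown minus control, of normalised count + 1 for tested genes of the 4 channel lists, the beta subunits and the FXYD proteins, coloured by direction where the limma adjusted p was under 0.05 and grey otherwise, with stars for the 6 genes. Scn4a lies farthest to the left of all, at -9.80, and Fxyd1 farthest to the right, at 5.97.

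Genes beside these loci were compared with them. Fxyd5 and Fxyd1 lie 9197 bases apart, with Fxyd7, not analysed here, between them. On the other side of Fxyd1, at 2143 bases and on the opposite strand, Lgi4, a secreted protein of the nerve sheath, had 0, 1.26 and 0.9501 in control and 117, 125 and 34.7 in knockdown (limma adjusted p = 8.5e-04). From summed reads it was 135 times as high (counting interval 37.0 to 1119), and its log2 change of 5.63 ranged from 5.27 without control 1 to 6.22 without knockdown library 3. Fxyd5, Fxyd1 and Lgi4 thus all rose, but Fxyd1 and Fxyd5 were highest in knockdown library 3 and Lgi4 was lowest there among knockdown libraries. Lsr, the next gene in the table beyond Fxyd5 at 59258 bases, did not pass (0.42 ± 0.41, limma adjusted p = 0.44).

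Next to Scn4a, at 12184 bases, Prr29 had 82.8, 115 and 77.9 in control and 0, 0 and 1.12 in knockdown. That is 249 reads against 1, or 297-fold lower with a counting interval of 52.8 to 11784. On the other side the adjacent gene, Cd79b, was not analysed here, and the next gene in the table, Smarcd2 at 45620 bases, rose by 0.97 ± 0.12 on the log2 scale (limma adjusted p = 0.0011). Around Clcn1 and Kcna7 the nearest genes not overlapping them, Casp2, Gm44284, Snrnp70 and Ntf5, did not pass. Without knockdown library 3, Casp2 (0.65, limma adjusted p = 1.3e-05) and Snrnp70 (-0.27, limma adjusted p = 3.5e-04) passed. Around Atp1b1, Blzf1 fell by 0.73 ± 0.12 at 129620 bases and Dpt did not pass.

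Profiles over the 6 libraries were compared by the Euclidean distance between centred log2 values, for genes whose mean was 100 or more. Scn4a was nearest to Afap1l1 (0.73), the fetal-type myosin heavy chain gene Myh8 (0.88) and Sntb1 (0.90), a syntrophin of the dystrophin complex. Clcn1 was nearest to Egln3 (0.20), Rrp12 (0.20) and Spsb1 (0.24), and Kcna7 to Nek2 (0.78), Rragd (0.82) and Clcn1 (0.83). Atp1b1 was nearest to Ttf2 (0.13), Gpr153 (0.15) and Ipo7 (0.15). Fxyd1 was nearest to the chemokine gene Cxcl5 (0.51), Fetub (0.58) and the metallothionein gene Mt1 (0.80), and Fxyd5 to the cathepsin gene Ctsf (0.25), Tmem45a (0.29) and H2-T23 (0.31), a class I histocompatibility gene. All of these libraries share the same 2 groups, so a small distance reflects a like difference between the groups and a like value in knockdown library 3.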

How the data were processed

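Gene RNA was measured in 6 poly(A) libraries, sequenced as paired reads of 150 bp per the labels' protocols. Per the submitters' processing notes, the tools were Trimmomatic 0.36, Subread 1.5.2, featureCounts and DESeq2, and the build was GRCm38; the strand setting, like the annotation release and the aligner, is not given in the sources used here. For each gene and library the authors deposited a normalised signal, the reads of the gene over a size factor, and from their own comparison a log2 fold change, a p-value and an adjusted p-value. Reads were recovered because 100% of values equalled a whole number of reads (1 read being 0.829 to 1.26 units) to within 0.01 reads.

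limma 3.58.1 in R 4.3.3 was run on log2(value + 1) with a mean-variance trend, two-sided, Benjamini-Hochberg adjusted at 0.05 over all genes with at least 10 in at least 3 libraries (16245 tested, 609 not). This scale understates the change of low genes. Ratios of summed reads, adjusted for library size, carry exact 95% intervals that cover counting error only. Exonic lengths and positions came from GENCODE M21 (16806 of 16854 identifiers found, 48 not), and promoter sequence from RefSeq, where all 6 genes matched. Groups came from the labels. No pair of libraries was as alike as sampling noise (chi-square per gene 3.85 or more, where 1 is noise). The fit was tested on simulated data with few changed genes and no outlying library, so its behaviour on data like these was not tested.

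The members and the lists were chosen with earlier results of these data known, so no list was tested as a set. Genes were named by rule: the 6 members, the other pump and FXYD genes, up to 3 per direction of each other list by smallest adjusted p, overlapping and adjacent genes, the 3 nearest profiles, and Adamtsl2. Exceptions are named in the text, and some genes given by the rule are not reported here. Alternatives were upper-quartile and TMM scaling, pseudocounts of 0.5 and 5, no trend, no filter or a minimum of 50, edgeR 4.0.16, DESeq2 1.42.0, a replicate block, each library left out, and shares without length correction.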

Additional observations from a re-analysis of the deposited data

How the results depend on the processing

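Clcn1, Scn4a, Fxyd1 and Fxyd5 kept their direction and call under all 16 alternatives, and Kcna7 under the 15 that tested it, since a minimum of 50 left it out. Log2 changes ranged from -3.15 to -2.58 for Clcn1, -10.29 to -8.55 for Scn4a, -3.43 to -2.05 for Kcna7, 5.45 to 6.31 for Fxyd1 and 2.14 to 2.51 for Fxyd5. Atp1b1 kept its call under 13 of 16; with each library left out its log2 change ranged from -1.64 to -1.03. Genes called overall numbered 7342, and 5101 to 12754 with each library left out, the most without knockdown library 3. Genes of the CLC list that rose numbered 0, but 1 with upper-quartile scaling, 1 with edgeR, 1 with DESeq2 and 0 to 4 with each library left out. The second potassium channel list had 3 that rose and 1 to 4 with each library left out, with 1 without control 2, control 3 or knockdown 1. FXYD genes that fell numbered 1, but 0 with a minimum of 50, which left Fxyd6 untested, and 1 to 2 with each library left out. The difference in the share of Fxyd1, 53.5 percentage points, was 41.4 without length correction. Where these changed, the cause was not tested beyond the fewer genes or libraries used.

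The replicate block left each log2 change as it was (Clcn1 -2.91), kept all 6 calls (largest limma adjusted p = 0.023, for Atp1b1) and called 6311 genes. Libraries with the same number deviated together with correlations of 0.017, 0.10 and 0.14, which do not settle whether they were paired. The labels do not say that a number marks a shared culture, so the main fit did not take the numbers as pairs. Depth limits Scn4a and Kcna7 in knockdown cells, at 1 to 5 reads per library.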
